A study of Homo sapiens with 10 samples.

Results

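The 9 genes described here encode enzymes of the pentose phosphate pathway and enzymes outside it that make NADPH. They were chosen by name (PGLS, PGD, TKT, TALDO1, RPIA, RPE, ME1, IDH1 and MTHFD2) and matched by symbol to the Ensembl identifiers of the gene tables, which held 58037 identifiers in all, and to the gene names in the m6A peak lists. The data came from A549, a human lung adenocarcinoma line, and from A549/DDP, its cisplatin-resistant counterpart, which the study received as a gift and for which no engineered allele is named. Both lines were grown in the same medium up to passage 10, and the labels name no cisplatin treatment of the cultures sequenced. For each line 2 input libraries of poly(A) RNA and 2 m6A-seq libraries, in which RNA fragments were pulled down with an antibody against N6-methyladenosine, were used. A second pair of A549 inputs, with labels that name no experiment of their own, was set aside as an alternative. The input libraries of A549/DDP carry the cell line label A549 but the cell type label of the DDP-resistant line, and the latter was followed. Nothing in the labels says whether replicates were separate cultures, so the p-values measure the spread between these libraries, which may be technical.

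The pentose phosphate pathway branches off glycolysis at glucose 6-phosphate. Its oxidative branch makes NADPH and a pentose phosphate, and its non-oxidative branch interconverts sugar phosphates, so that carbon can return to glycolysis or supply ribose for nucleotides. Malic enzyme, isocitrate dehydrogenase and folate-cycle dehydrogenases provide NADPH from other carbon sources, and NADPH in turn feeds antioxidant reduction, lipid synthesis and carbonyl reduction. Several of these genes are known targets of the transcription factor NRF2, and A549 cells are known to carry a KEAP1 mutation that leaves NRF2 active.

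Expected counts per library were 35286514 and 34570074 in the A549 inputs, and 29225501 and 33971561 in the A549/DDP inputs. The second A549 pair was far shallower, with 855034 and 982036 counts, with 75.2% and 73.9% of them from mitochondrial genes. KRT7, KRT8, KRT18, CDH1 and EPCAM, defining markers of epithelial cells, were present at 1 TPM (transcript abundance scaled for length and depth) or more in all 4 main inputs. KRT19, the sixth epithelial marker, was at 33.3 and 64.0 TPM in A549 and at 9.24 and 0 in A549/DDP. Of the alveolar type II genes, SFTPC and SFTPA1 were listed at 0 in all 4. LAMP3 was at 3.14 TPM in A549 replicate 1 and SFTPB at 0.45 TPM in A549/DDP replicate 1, and both were at 0 in the other main inputs. The summed TPM of the 6 epithelial markers was 8621 to 11390 in A549 and 15990 to 16050 in A549/DDP, but its members did not move alike, with KRT8 at 2028 and 5231 against 9818 and 9891 TPM and KRT7 at 4937 and 3468 against 1306 and 1255 TPM. The part of these markers in the differences given here was not tested. The summed TPM of 4 blood markers was 0.03 to 0.69 in A549 and 1.63 to 4.86 in A549/DDP, that of 3 endothelial markers at most 0.40, and that of 4 fibroblast markers 5.21 to 9.31 and 2.94 to 19.2.

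Of the 9 enzymes, PGD and TALDO1 rose in A549/DDP relative to A549, RPIA and MTHFD2 fell, and the other 5 did not pass the test. A gene was called where edgeR's quasi-likelihood test, run over 16406 genes with all 9 enzymes among them, gave an adjusted p under 0.05. Over all genes tested 6.85% were called higher and 8.00% lower, or 14.9% in either direction. The median log2 fold change of the 9 enzymes was 0.52, beside -0.00 over all genes tested. Both A549/DDP inputs lay above both A549 inputs for 5 enzymes and under both for 2, and over all genes these shares were 29.7% and 32.7%, so that the lines did not overlap for 7 of the 9 enzymes and for 62.4% of genes. Values by library are CPM, counts scaled to library size, after TMM, and a higher CPM in bulk RNA cannot be told apart from a change in the composition of the culture.

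**Figure D1:**
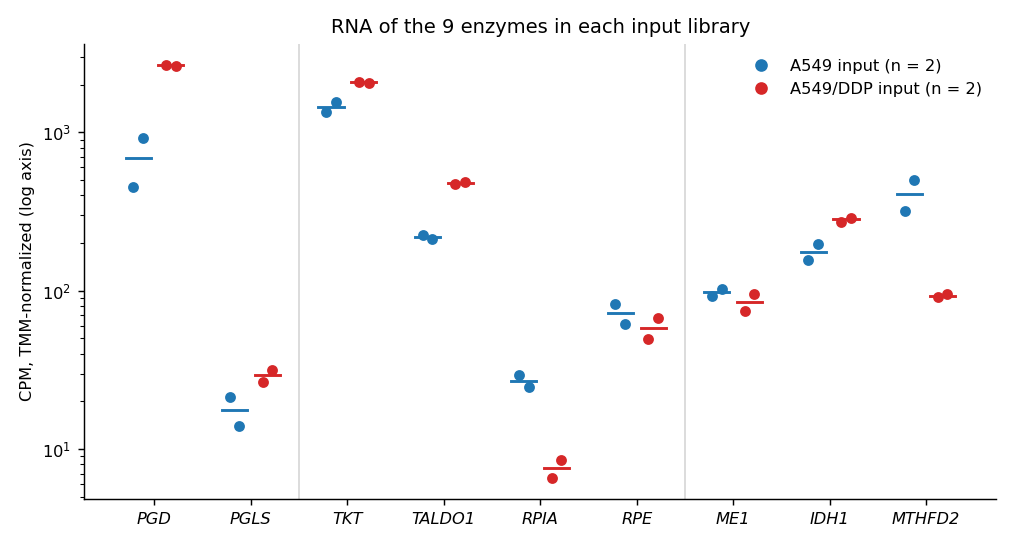
RNA of the 9 enzymes in CPM on a log axis, with 1 point per input library (2 of A549, 2 of A549/DDP) and a bar at the mean of each line. The gene order runs from the oxidative branch through the non-oxidative branch to the NADPH-producing enzymes outside the pathway, and the points of the lines overlap for RPE and ME1.

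PGD encodes 6-phosphogluconate dehydrogenase, the last enzyme of the oxidative branch, which makes NADPH and ribulose 5-phosphate. The gene (ENSG00000142657.20) spans chromosome 1 from 10399064 to 10420511 in GRCh38. Its CPM was 454 and 920 in the A549 inputs, and 2676 and 2625 in the A549/DDP inputs. The A549 libraries thus stood apart from each other, while those of A549/DDP were close, and both of the latter lay well above the former. The mean rose from 687 ± 330 to 2651 ± 35.7 CPM (SD, n = 2), a log2 fold change of 1.95 (SE 0.33, adjusted p = 0.0159). The change was 1.51 on the log2 scale without A549 replicate 1 and 2.53 without A549 replicate 2. In these fits the lone A549 library is assumed to vary like the other line, so they do not test the spread of A549. On the TPM scale PGD was 987 in A549, and with 3612 in A549/DDP it ranked 16 among all genes.

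PGLS, which encodes the lactonase that precedes PGD in the same branch, was measured at far lower levels. The gene (ENSG00000130313.6) lies on chromosome 19 from 17511649 to 17521288. Its CPM was 21.4 and 13.9 in A549, and 26.7 and 31.7 in A549/DDP. The lines did not overlap, but the log2 fold change of 0.73 (SE 0.35) did not pass the test (adjusted p = 0.209). Within a library the TPM ratio of PGLS to PGD was 0.0671 and 0.0192 in A549, and 0.0136 and 0.0155 in A549/DDP.

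In the non-oxidative branch 1 enzyme rose (TALDO1), 1 fell (RPIA), and TKT and RPE did not pass the test. TKT encodes transketolase, which moves units of 2 carbons between sugar phosphates, and is located on chromosome 3 from 53224712 to 53256022 (ENSG00000163931.15). TKT stood at 1336 and 1564 CPM in A549, against 2095 and 2057 in A549/DDP. All 4 values are high and the lines are separate, but the log2 fold change of 0.52 (SE 0.15) missed the threshold (adjusted p = 0.0688). Leaving out an A549 input gave an adjusted p of 0.000347 (without replicate 1) or 5.44e-07 (without replicate 2), where the lone A549 library is assumed to vary like the other line. Leaving out an A549/DDP input gave 0.298 (without replicate 1) or 0.266 (without replicate 2).

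TALDO1 encodes transaldolase, the partner of transketolase in returning carbon to glycolysis (ENSG00000177156.10, chromosome 11 from 747464 to 765012). The A549 inputs gave 226 and 211 CPM, and the A549/DDP inputs 469 and 485 CPM. Replicates of each line agreed closely, with means of 218 ± 10.3 and 477 ± 11.7 CPM (SD, n = 2). TALDO1 rose by a log2 fold change of 1.13 (SE 0.15, adjusted p = 0.0088), and the change was 1.06 to 1.16 without each library in turn.

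RPIA encodes ribose 5-phosphate isomerase, which turns ribulose 5-phosphate into the ribose 5-phosphate used for nucleotides (ENSG00000153574.8, chromosome 2 from 88691673 to 88750929). It was the lowest of the 9 in both lines when compared per length. In CPM it was 29.5 and 24.5 in A549, and 6.54 and 8.54 in A549/DDP, from 972, 869, 194 and 298 expected counts. Both resistant libraries lay under both parental ones, and the mean of 7.54 ± 1.41 CPM was 0.279 of the A549 mean of 27.0 ± 3.56 (SD, n = 2). The log2 fold change was -1.84 (SE 0.37, adjusted p = 0.0258), and the call was lost with limma on log2(TPM + 0.1) (adjusted p = 0.0578).

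RPE encodes ribulose 5-phosphate epimerase, which takes the same substrate to xylulose 5-phosphate (ENSG00000197713.14, chromosome 2 from 210002638 to 210022260). Its CPM was 82.7 and 61.7 in A549, and 49.4 and 67.2 in A549/DDP, so the lines overlapped. The log2 fold change of -0.31 (SE 0.26) did not pass the test (adjusted p = 0.482), and an SE of this size leaves a fall or a small rise possible.

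Outside the pathway, MTHFD2 gave the lowest fold change of the 9. It encodes a mitochondrial dehydrogenase and cyclohydrolase of the folate cycle, which can use NAD or NADP (ENSG00000065911.11, chromosome 2 from 74198615 to 74217565). MTHFD2 was at 318 and 501 CPM in A549 and at 90.8 and 95.2 CPM in A549/DDP. The parental libraries were spread and the resistant ones close together, with no overlap. The mean fell from 410 ± 129 to 93.0 ± 3.10 CPM (SD, n = 2), a log2 fold change of -2.14 (SE 0.25, adjusted p = 0.0061).

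IDH1 encodes the cytosolic isocitrate dehydrogenase that reduces NADP (ENSG00000138413.13, chromosome 2 from 208236227 to 208255071). The A549 inputs held 155 and 197 CPM, and the A549/DDP inputs 274 and 290 CPM. The resistant libraries were both above the parental ones, but the log2 fold change of 0.68 (SE 0.18) missed the threshold (adjusted p = 0.0587). Without A549 replicate 1 the adjusted p was 0.0223 and without A549 replicate 2 it was 0.000129, again from a lone A549 library, whereas it was 0.190 without A549/DDP replicate 1 and 0.247 without A549/DDP replicate 2.

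ME1 encodes cytosolic malic enzyme, which makes NADPH while turning malate into pyruvate (ENSG00000065833.8, chromosome 6 from 83210402 to 83431051). It was at 93.0 and 103 CPM in A549, and at 74.0 and 94.8 CPM in A549/DDP. The lines overlapped, and the log2 fold change of -0.21 (SE 0.20) did not pass the test (adjusted p = 0.555).

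Reads that a near-identical copy could have taken were few. The processed pseudogenes of PGD and of MTHFD2 were listed at no more than 3.01 expected counts in any of the 4 main inputs. RPEL1, the retrocopy of RPE, was listed at 70 counts in A549/DDP replicate 2 and at 0 in the other main inputs, beside 1463 to 2722 counts for RPE. IDH1-AS1, the antisense neighbour of IDH1, was listed at 91 counts in A549/DDP replicate 2 and at 1 or 0 elsewhere, beside 5106 to 10112 counts for IDH1.

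Because TPM corrects for transcript length, the 9 enzymes can be ordered by it. In A549 the order was TKT (1314 TPM), PGD (987), MTHFD2 (442), TALDO1 (365), IDH1 (154), RPE (69.6), ME1 (46.7), PGLS (33.8) and RPIA (24.0). The libraries of TKT overlapped with those of PGD, those of MTHFD2 with those of TALDO1, and those of ME1 with those of PGLS, so these neighbours are not separated. In A549/DDP the order was PGD (3612 TPM), TKT (2017), TALDO1 (718), IDH1 (218), MTHFD2 (113), RPE (66.6), PGLS (52.4), ME1 (40.2) and RPIA (6.77), and no neighbours overlapped there. PGD thus stood above TKT, and MTHFD2 under TALDO1 and IDH1, in the resistant line. The 9 enzymes together held 0.269% and 0.418% of all TPM in the A549 inputs, and 0.688% and 0.681% in the A549/DDP inputs. Most of this rise is that of PGD (987 to 3612 TPM), so the sum does not describe the group. TKT, TALDO1, IDH1 and PGLS also had higher means in A549/DDP, whereas MTHFD2, RPE, ME1 and RPIA had lower ones.

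Ratios within a library do not depend on its scaling and show where the enzymes shifted against each other. The TPM ratio of PGD to TKT was 0.563 and 0.886 in A549, and 1.85 and 1.73 in A549/DDP. The ratio of RPIA to RPE, the enzymes that share a substrate, was 0.340 and 0.351 in A549, and 0.102 and 0.101 in A549/DDP. Replicates of this ratio were close within each line and far apart between the lines. For the NADPH-producing enzymes outside the pathway, MTHFD2 to IDH1 was 2.53 and 3.12 in A549 and 0.619 and 0.424 in A549/DDP, and IDH1 to ME1 was 3.20 and 3.39 in A549 and 5.96 and 5.03 in A549/DDP. The ratio of TALDO1 to TKT moved least, from 0.295 and 0.266 to 0.352 and 0.360. None of these ratios overlapped between the 2 lines. In CPM the lines did not overlap for 62.4% of single genes, and no such share was worked out for ratios. All the ratios but IDH1 to ME1 hold an enzyme called in the same libraries, so they are not separate evidence. With 2 libraries against 2 no exact test can reach the threshold, so the ratios are given without a p-value.

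**Figure D2:**
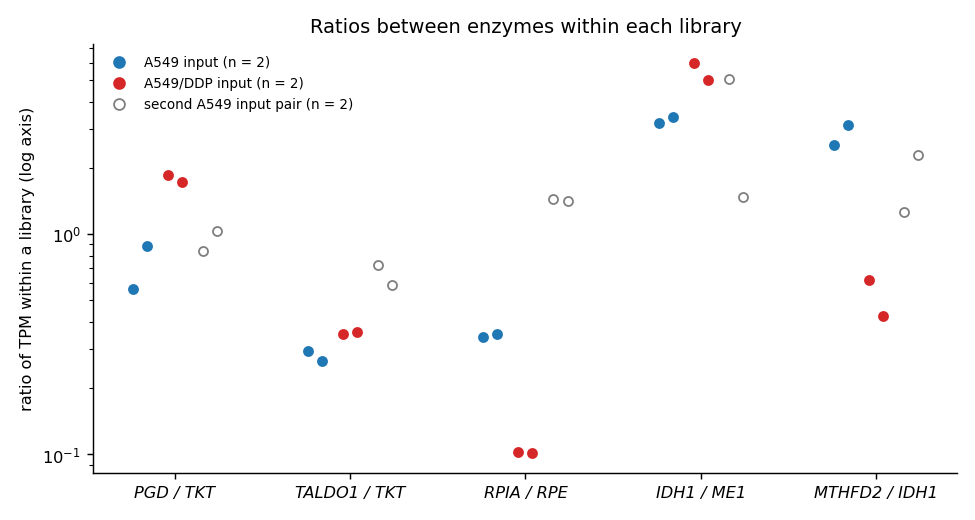
TPM ratios between pairs of the enzymes within a library, on a log axis, with 1 point per library for A549, A549/DDP and the second A549 input pair (2 each). The ratio of RPIA to RPE was 0.340 and 0.351 in A549, 0.102 and 0.101 in A549/DDP, and 1.45 and 1.41 in the second pair.

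The second A549 pair, which held only 211799 and 256064 counts outside mitochondrial genes, gave few counts for each enzyme. MTHFD2 had 27 and 44 expected counts there, PGD 42 and 100, TKT 39 and 50, and RPIA 14 and 13. PGLS had 0 and 2, which is within the 3 counts that a count of 0 allows, so no fold is given for it. With this pair in place of the first, PGD (log2 fold change 2.18), TALDO1 (1.59), RPIA (-3.90) and MTHFD2 (-1.67) kept their direction and passed, and TKT (2.49) and IDH1 (1.37) passed as well. In that fit the median over all genes was 0.80, so rises are to be read against that shift. With both pairs together MTHFD2 passed (adjusted p = 0.0395), whereas PGD (0.0589), RPIA (0.0589) and TALDO1 (0.0853) did not. TPM ratios in the second pair lay on the A549 side for PGD to TKT (0.842 and 1.03) and for MTHFD2 to IDH1 (1.27 and 2.28), but not for RPIA to RPE, which at 1.45 and 1.41 was above that of either line, nor for IDH1 to ME1, which was 5.07 and 1.47. TALDO1 to TKT, at 0.724 and 0.588, was also above that of both lines.

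The gene tables also give a transcript length for each gene, weighted by the estimated abundance of its isoforms, which moves where the estimated isoform mix moves. For RPE it was 1764 and 1647 bases in A549, and 1455 and 1496 bases in A549/DDP. For IDH1 it was 1811 and 1967 bases in A549, and 2138 and 2103 bases in A549/DDP. The values did not overlap between the lines for RPE, IDH1, TKT (1867 and 1814 against 1734 and 1696) and TALDO1 (1116 and 983 against 1145 and 1158), and over all genes tested 30.5% did not overlap. RPIA (1848 bases) and ME1 (3371 bases) had the same length in every library. MTHFD2 overlapped, with 1487 and 1625 bases against 1202 and 1659.

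The wider lists of this metabolism, set beside the 9 enzymes, behaved as follows. Of 11 other pentose phosphate genes 8 were tested and none passed edgeR's test, although 1 had an unadjusted p under 0.05. That gene was PRPS2, a ribose phosphate pyrophosphokinase, with the highest log2 fold change of the list (1.07, adjusted p = 0.144), and DESeq2 called none either. The lowest was RBKS, ribokinase, at -1.46 (adjusted p = 0.169), and the median of the list was 0.06. The list of 14 other NADPH-producing genes, all tested, also held genes of folate and NADP supply that do not themselves make NADPH. Both genes called in it are of this kind. NADK, the cytosolic NAD kinase that supplies NADP, rose by a log2 fold change of 1.22 (SE 0.27, adjusted p = 0.0326). MTHFD1L, a mitochondrial folate enzyme without dehydrogenase activity, fell by 1.41 on the log2 scale (SE 0.22, adjusted p = 0.0132). These 2 calls of 14 are near the 14.9% called over all genes, and the median of the list was 0.25. On log2(TPM + 1) with limma neither passed, with 0.79 for NADK (adjusted p = 0.125) and -1.11 for MTHFD1L (adjusted p = 0.0587). The NADK call was lost without A549/DDP replicate 1 (log2 fold change 0.84, adjusted p = 0.138), and the MTHFD1L value turned to 0.70 with the second A549 pair, where the median over all genes was 0.80.

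Of 19 NADPH-using enzymes, all tested, 9 rose and 1 fell, beside 6.85% called higher and 8.00% called lower over all genes. Their median log2 fold change was 0.78, beside -0.00 over all genes tested. This list, too, was chosen with earlier results of these data known. Those that rose were the carbonyl and quinone reductases NQO1, CBR1, AKR1B10, AKR1C1, AKR1C2 and AKR1C3, the electron donor POR, and the lipid and sterol synthesis genes FASN and DHCR7. AKR1C1 had the highest log2 fold change of these 19, 3.21 (SE 0.16, adjusted p = 0.0016). TXNRD1, thioredoxin reductase, fell by 0.55 on the log2 scale (SE 0.14, adjusted p = 0.0483), and AKR1B1 had the lowest value, -0.72 (adjusted p = 0.0545). Scaled for length, on log2(TPM + 1) with limma, POR (0.25, adjusted p = 0.579), DHCR7 (0.95, adjusted p = 0.208), FASN (1.31, adjusted p = 0.0610) and TXNRD1 (-0.59, adjusted p = 0.0560) did not pass. The TPM of POR overlapped between the lines, at 96.4 and 134 in A549 and 152 and 119 in A549/DDP. The AKR1C genes are close paralogs, so how reads were divided among them is uncertain. Without A549/DDP replicate 1 the calls of TXNRD1 (adjusted p = 0.219), NQO1 (0.152) and POR (0.0956) were lost, and without A549/DDP replicate 2 they were lost as well (0.258, 0.0931 and 0.0540).

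**Figure D3:**
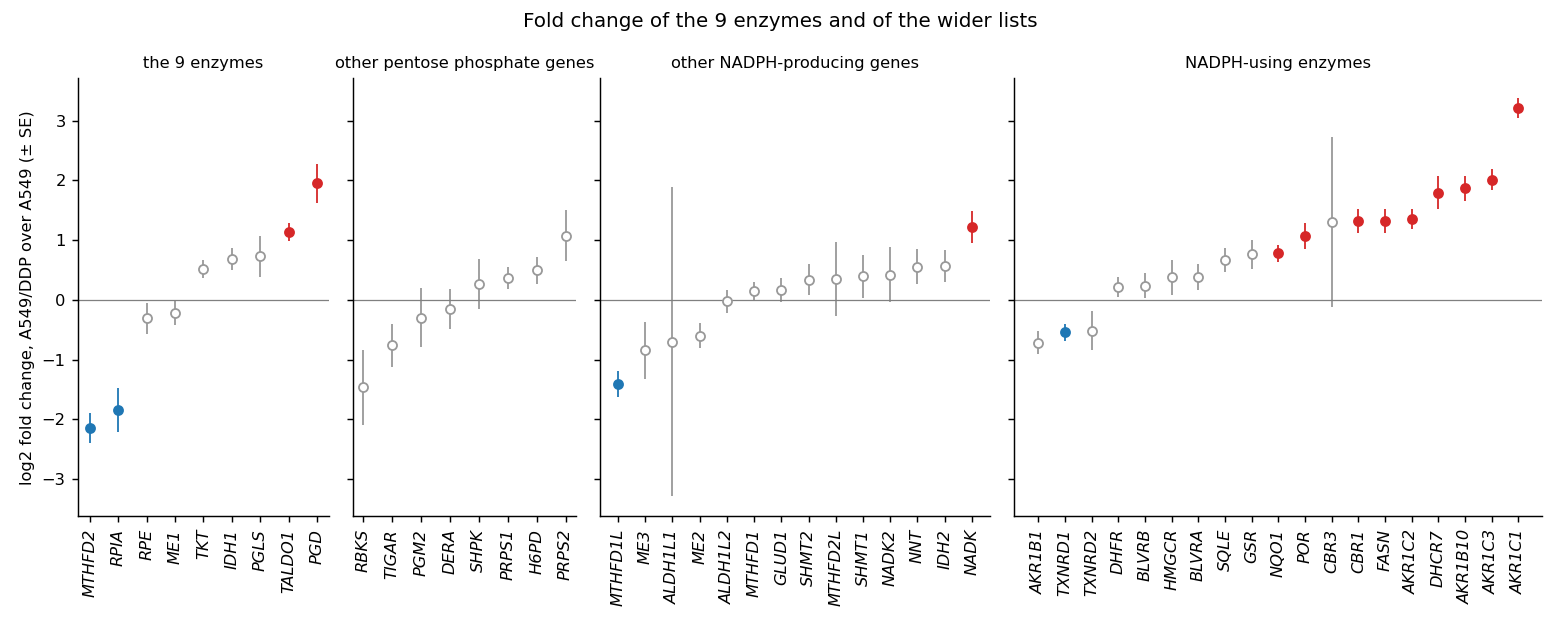
Log2 fold change of A549/DDP over A549 with its SE for the 9 enzymes and for the tested genes of 3 wider lists, from 2 libraries a line. Filled red points rose and filled blue points fell at an adjusted p under 0.05 and open grey points did not pass, which gives 2 and 2 of the 9 enzymes, none of 8, 1 and 1 of 14, and 9 and 1 of 19.

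The promoters of the enzymes were searched for 2 short motifs, shown here because the gene group is linked to the factors that bind them. Windows of 300 bases, 250 before and 50 after the gene start, were taken from RefSeq (GRCh38.p14), and all 9 genes matched, with 10 windows. The shares below are of all windows, not limited to genes tested, whereas the enzymes are counted as genes. The core of the antioxidant response element, TGACNNNGC, was found on either strand in 13.3% of 35116 windows, and in 5 of the 9 enzymes. The core of an ATF4 response element, TGATGNAA, was found on either strand in 3.62% of windows and in 0 of the 9. In the sequences below, each of 30 bases written 5′ to 3′ along the gene, capitals mark the match, which reads GCNNNGTCA where it lies on the other strand.
ME1, 137 bases before the start, chr6:83431169-83431198, minus strand: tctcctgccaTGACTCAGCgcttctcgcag
ME1, 12 bases into the gene, other strand, chr6:83431021-83431050, minus strand: gctgcagtcaGCACCGTCAccccagcagca
IDH1, 143 bases before the start, chr2:208255195-208255224, minus strand: cccctctcgcTGACTCCGCccatcccacgg
RPE, 151 bases before the start, chr2:210002477-210002506, plus strand: ggcggacggcTGACAGCGCcccaccccagg
PGD, before the start, other strand, chr1:10398853-10398882, plus strand: cctcgccgggGCAATGTCAtctaggtgctc
MTHFD2, 7 bases into the gene, other strand, chr2:74198611-74198640, plus strand: ttccctcccgGCGCAGTCAccggcgcggtc
The windows of TKT, TALDO1, PGLS and RPIA held no match to these letters. Of the genes called, PGD rose and MTHFD2 fell with a match in the window, and TALDO1 rose and RPIA fell without one. Sequence outside these windows was not searched, and whether the matches bear on the changes was not tested.

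The m6A peak lists were called for each library by the authors, and give the exon blocks, gene name and p-value of a peak but no read depth. The A549 lists held 26320 (replicate 1) and 14576 peaks (replicate 2), and those of A549/DDP 27244 and 10661. Of the 9 enzymes 3 had a peak in A549 replicate 1 (background over genes tested 43.8%), 3 in A549 replicate 2 (30.6%), then 6 in the first A549/DDP list (40.7%) and 4 in the second (22.2%). Their peaks numbered 5, 6, 21 and 10. In all 8 enzymes had a peak in at least 1 list (57.1% of genes), and RPIA had none. No enzyme had a peak in both A549 lists (27.1% of genes), and TALDO1 and IDH1 had one in both A549/DDP lists (19.5%). The share of genes with a peak in both A549 lists and neither of A549/DDP was 4.63%, with 0 of the 9 enzymes, and 0 had a peak in all 4 lists (13.9% of genes).

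Merged over the lists where exon blocks shared at least 1 base, the peaks formed 30 regions, of which 9 were in at least 1 list of each line, 20 in A549/DDP lists only and 1 in an A549 list only. Over the 38075 regions of all genes tested these shares were 33.5%, 33.4% and 33.1%, and regions of 1 gene are not independent of each other. These counts rest on A549/DDP replicate 1, without which 16 regions remained, 5 of them in A549/DDP only and 6 in A549 only. Coordinates are those of the lists in hg38, counted from 1, and positions in exons or UTRs were not analysed here.

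**Figure D4:**
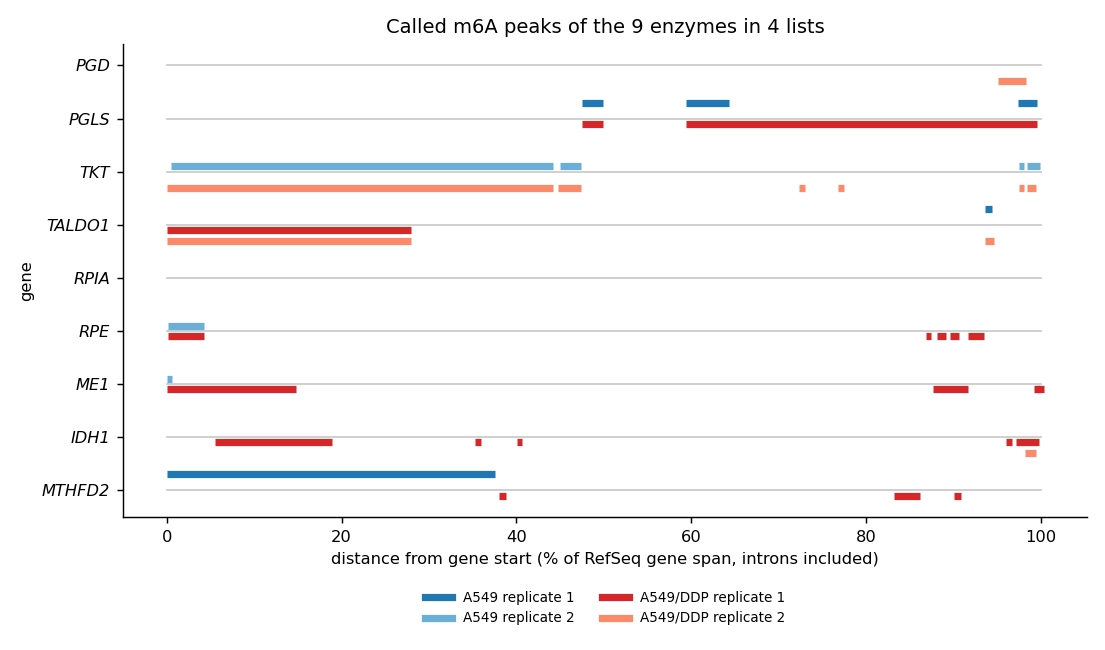
Outer span of each called m6A peak, introns included, along the RefSeq span of its gene from start (0%) to end (100%), with 1 colour for each of the 4 lists. RPIA had no peak, TKT had peaks in the replicate 2 list of each line, and only TALDO1 and IDH1 had peaks in both A549/DDP lists.

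IDH1 was the only one of the 9 with peaks in both A549/DDP lists and in neither A549 list, a pattern of 1.98% of genes. The shared region, chromosome 2 from 208236277 to 208236774 on the minus strand, lay 50 bases short of the gene's end, with authors' p-values of 2.6e-07 and 1.9e-07. The list of A549/DDP replicate 1 held 4 further IDH1 regions, up to 208254031. TALDO1 had a region near its start, from 747477 to 752359 on chromosome 11, in both A549/DDP lists (0.0065 and 2.2e-08). A second TALDO1 region near its end, from 763882 to 764067, was in A549 replicate 1 and A549/DDP replicate 2.

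Other enzymes had peaks in the list of 1 replicate of a line. TKT had 6 regions, 4 of them in replicate 2 of both lines and the other 2 in A549/DDP replicate 2 alone, and the region nearest its end ran from 53224757 to 53225205 on chromosome 3 (authors' p-values from 6.6e-08 to 7.8e-05). PGLS had 2 regions, from 17516223 to 17516463 and from 17517376 to 17521238 on chromosome 19, in replicate 1 of both lines. RPE and ME1 each had 5 regions, of which the one at the gene's start was in A549 replicate 2 and A549/DDP replicate 1 and the rest in A549/DDP replicate 1 alone.

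Of the 4 enzymes called in the RNA comparison, TALDO1 had peaks in 3 lists, MTHFD2 in 2, PGD in 1 and RPIA in none. PGD, with the highest RNA of the 9 in A549/DDP, had 1 peak in all, in A549/DDP replicate 2, from 10419452 to 10420144 on chromosome 1 (authors' p-value 0.00014), 367 bases short of its end. MTHFD2 had 1 region in A549 replicate 1, from 74198612 to 74205723 on chromosome 2 (1.5e-05), whose span includes the promoter match printed above. Its other 3 regions were in A549/DDP replicate 1 (6e-07), the nearest to the gene's end running from 74215677 to 74215826. A gene's level and the length of a list both bear on whether a peak is called, and their part in these counts was not tested.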

How the data were processed

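Poly(A) RNA inputs and m6A-seq libraries of A549 and A549/DDP cells, strand-specific by the dUTP method, were analysed from the processed files, 10 libraries in all. For each input the authors deposited a gene table in RSEM's layout. Its deposited expected counts are not normalized, its TPM and its FPKM values were scaled by the authors (length, depth), and the deposited transcript length is in bases. For each m6A-seq library the authors deposited a peak list with a p-value per peak, raw or adjusted not being said. Submitters' notes name STAR, RSEM, bedtools and hg38, and the peak caller is not given in the sources used here. Groups followed the sample labels, in which the A549 m6A-seq replicate numbers are exchanged relative to the file names.

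Expected counts were rounded, filtered (filterByExpr), TMM-scaled and tested two-sided with edgeR 4.0.16 (glmQLFit, glmQLFTest) in R 4.3.3, without a block, with Benjamini-Hochberg adjustment over 16406 genes. SE is the size of the log2 fold change over the square root of F. Of 58037 identifiers 56948 were matched to a symbol. The script was tested on simulated counts with known changes. Of genes changed by 1 on the log2 scale 27% were called, and of those changed by 2, 76%, with 11 false calls. A gene that did not pass is thus not shown to be unchanged. The simulation changed only 200 of 15371 genes, whereas 2437 genes were called in the real data. The adjustment therefore acts differently there, and these shares need not hold for the real test. Alternatives were upper-quartile scaling, mitochondrial genes left out, DESeq2 1.42.0, no filter beyond 1 count or at least 10 counts in every library, limma 3.58.1 on log2 TPM or FPKM with a pseudocount of 1, or 0.1 for TPM, keeping genes whose mean was 1 or more or all genes, the replicate number as a block, the second A549 pair or both pairs, and each library left out in turn. Peak alternatives were a p-value at or below 1e-05, lists of 10661 peaks each (seed 4), and an overlap that takes 50% or more of the shorter peak. Intervals for levels are SDs over 2 libraries. The peak lists give no depth. Peak shares leave out duplicate identifiers of 1 gene (16389 genes). The wider lists held 11, 14 and 19 genes. Named genes were the 9 enzymes, every gene of the wider lists with an adjusted p under 0.05, and the highest and lowest of each list. The 9 enzymes and all lists were chosen with earlier results of these data known. Some related genes are not reported here and were left out of the lists and their counts.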

Additional observations from a re-analysis of the deposited data

How the results depend on the processing

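PGD, TALDO1, RPIA and MTHFD2 kept their direction under all 12 alternatives to the main RNA test and without each of the 4 inputs. They passed in 10, 10, 9 and 11 of the 12, respectively. A fit with an input left out has 1 library in a line, which is assumed to vary like the other line. Calls in such fits are therefore not separate support. No enzyme of the 9 changed direction. The number higher was 4 with DESeq2, with at least 10 counts in every library and with the second A549 pair, and 0 with both pairs and with limma on log2(TPM + 1) without a filter, which called 0 of all genes (4519 had an unadjusted p under 0.05). The number lower was 1 with limma on log2(TPM + 0.1) and with both pairs, and 0 with limma without a filter. The median log2 fold change was 1.37 with the second pair and 0.83 with both. Leaving out an input gave 2 to 4 higher, 2 lower and a median of 0.39 to 0.52. The calls over all genes numbered 2437 in the main test, 4278 with DESeq2, 4010 with no filter beyond 1 count, 1492 with limma on log2(TPM + 1), 1177 with log2(TPM + 0.1), 1632 with log2(FPKM + 1), 3758 with the second pair and 677 with both.

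Over genes, the deviations of same-numbered inputs from the mean of their line had a correlation of 0.021. With 2 libraries a line the deviations of replicate 2 mirror those of replicate 1. The value therefore does not show whether same-numbered libraries share a batch. With the replicate number as a block 3536 genes passed, IDH1 (adjusted p = 0.0245) among them, so that 3 of the 9 enzymes were higher and 2 lower, with a median of 0.52. With the block 1 other pentose phosphate gene was higher. In the list of other NADPH-producing genes 1 was higher and 1 lower, and 10 NADPH-using enzymes were higher and 2 lower.

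For the other pentose phosphate genes the number higher was 1 with no filter beyond 1 count and with the second pair, the number lower was 1 with the second pair, and inputs left out gave 0 to 2 higher and 0 to 1 lower. For the list of other NADPH-producing genes both numbers were 0 in each of the 4 limma settings and with both pairs. With the second pair they were 5 higher and 0 lower. Inputs left out gave 0 to 2 higher and 1 lower. For the NADPH-using enzymes the number higher was 0 with limma without a filter, 6, 6 and 7 with limma on log2(TPM + 1), log2(TPM + 0.1) and log2(FPKM + 1), and 2 with both pairs. The number lower was 2 with DESeq2 and with at least 10 counts in every library, and 0 with upper-quartile scaling, with limma without a filter and with both pairs, and inputs left out gave 7 to 11 higher and 0 to 2 lower. With the second pair the log2 fold changes of MTHFD1L (0.70), TXNRD1 (0.12) and AKR1B1 (0.42) turned positive. In that fit the median over all genes was 0.80, and each of these values lay under it. Causes were not tested.

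With a peak limit of 1e-05 on the p-value the enzymes with a peak were 5, those with one in both A549/DDP lists 1, and the regions 16, of which 2 were in each line and 0 in A549 only. With lists of equal size these were 5 enzymes, 1 in both A549/DDP lists, and 15 regions, of which 2 were in each line, 10 in A549/DDP only and 3 in A549 only. Lists left out gave 7 to 8 enzymes with a peak, 0 to 3 with one in every A549 list left, 2 to 6 with one in every A549/DDP list left, and 16 to 30 regions, of which 3 to 6 were in each line, 5 to 26 in A549/DDP only and 0 to 6 in A549 only. An overlap of 50% of the shorter peak changed none of these counts.

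The precision rests on 2 libraries a line, and on 0 to 100 counts per enzyme in the second pair. The peak lists hold no depth, so a missing peak does not show that methylation is missing.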
